A study of Mus musculus with 2 samples.

Results

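Microglia of the Nf1 optic glioma that carried transcripts of the activation genes Cst7, Lpl, Itgax or Gpr84 were examined in single-cell RNA sequencing data. They numbered 653 of the 25652 cells that passed the quality limits, and of all 1344 microglia. Library C-ON held 83 of them among 8834 cells, and library FMC_new 570 among 16818 cells. A cell was a member if Tmem119, P2ry12 and Sall1 summed to at least 3 unique molecular identifiers (UMIs, each standing for 1 captured RNA molecule), Csf1r and C1qa to at least 2, F13a1 and Lyve1 to at most 1, and the activation genes to at least 2. The last of these sums is called the activation sum below.

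Both libraries came from optic nerves of NF1-OPG mice at 12 weeks of age, each from a pool of 10 mice per the labels. These mice are Nf1 flox/mut; GFAP-Cre on C57BL/6, so that Nf1 is lost in cells in which the GFAP promoter has driven Cre and is present in a single working copy elsewhere, microglia included. The labels give both libraries the same genotype and no treatment, and the words "control" and "FMC new" in their titles are not explained. All comparisons were therefore made between classes of cells within the libraries, with the 2 libraries as replicates.

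Microglia are the resident macrophages of the central nervous system and survey it through receptors such as P2ry12 and Cx3cr1. On contact with damaged myelin, dying cells or tumor they can switch on genes for lysosomal digestion, lipid handling, antigen presentation and chemokines. In Nf1 optic glioma, microglia are known to receive signals from T cells and to release factors that act on the tumor cells. Cst7 encodes cystatin F, an inhibitor of lysosomal proteases, Lpl encodes lipoprotein lipase, Itgax the integrin CD11c, and Gpr84 a receptor for medium-chain fatty acids. On GRCm38, Cst7 lies at chr2:150570415-150578944, Lpl at chr8:68880491-68907448 and Itgax at chr7:128129547-128150657 on the plus strand, and Gpr84 at chr15:103308235-103310612 on the minus strand.

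The activation genes chose the members, so their values are a description. Gpr84 was found most often, in 79.5% of the C-ON members and 74.7% of the FMC_new members. Cst7 was found in 57.8% and 54.7%, and Itgax in 32.5% and 46.8%. Lpl was the rarest, with 7.23% and 20%. The name of the class thus rests on Cst7 or Lpl in 414 of the 653 cells (63.4%), while the other 239 had neither and entered through Gpr84 or Itgax. A single activation gene was detected in 226 members and all 4 in 34. Gpr84 alone was the most frequent combination, with 150 cells.

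For comparison, oligodendrocytes, which should lack these genes, had a UMI of Gpr84 in 0.145% and 0.439% of cells and of Cst7 in 2.19% and 9.02%, at median depths of 7600 and 6236 UMIs against 8361 and 8050 in the members. T cells, which express Cst7, had it in 43.4% and 42.6% of cells. With every cell thinned to 2000 UMIs, Gpr84 was found in 42.2% and 47.0% of members and Cst7 in 30.1% and 25.6%.

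**Figure D1:**
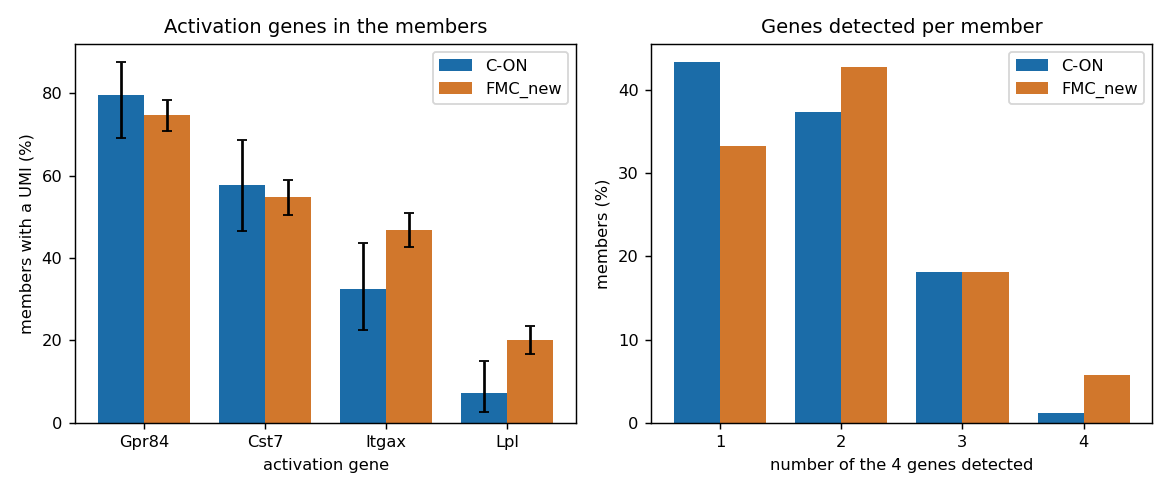
Share of activated microglia (percent) with at least 1 UMI of each activation gene in libraries C-ON and FMC_new, with exact 95% binomial intervals for counting error, and the share of members by the number of these genes detected. Gpr84 is the highest in both libraries, at 79.5% and 74.7%, and Lpl the lowest, at 7.23% and 20%.

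The identity and border genes also chose the members, so their values are a description. Tmem119, a microglial membrane protein, was found in 95.1% of members, the purinergic receptor P2ry12 in 93.7%, and Sall1, a microglial transcription factor, in 50.4%. Lyve1 had 0 UMIs and F13a1 7 UMIs in all members. Of 10 border macrophage markers, Cbr2, Cd163, Pf4, Folr2 and Cd209f were at 0 in C-ON and Cd209f in FMC_new, and the list summed to 67.1 and 104 CPM (UMIs scaled to all UMIs of the class in a library). The T and NK cell list summed to 90.8 and 214 CPM, with 8 and 11 of 11 genes detected.

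RNA of other cells was present in the members and in the cells they were compared with. The oligodendrocyte list, with 12 of 12 genes detected, summed to 5259 and 4322 CPM in the activated cells and to 19685 and 13259 in the non-activated microglia. Gh, the growth hormone gene of the pituitary, was at 0 and 2376 CPM in the activated and 0 and 5267 in the non-activated cells. Other pituitary genes went the other way. Of 4 tested by edgeR in the comparison described below, Pomc and Cga were higher in the activated cells and Gh was lower (4.02% and 6.89% of all genes were). Pomc and Cga had log2 fold changes of 1.47 and 2.92. Without the mixed barcodes defined below these were -0.27 and -0.70, and 0 of 4 passed. The libraries shared 188 barcodes among kept cells, and the barcodes of 11 members were also kept cells of the other library.

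Activated cells were 46.6% of the microglia of C-ON and 48.9% of those of FMC_new (48.6% together, with an exact 95% binomial interval of 45.9 to 51.3 for counting error). The rule counts raw UMIs, and this share rose with depth, from 15.0% of microglia below 3000 UMIs to 77.8% above 12000. It was 20.3% when each cell was thinned to 2000 UMIs before the rule was applied. The members had medians of 8361 and 8050 UMIs, against 4768 and 4189 in microglia with an activation sum of 0. At the edge of the rule, 161 members had a sum of exactly 2 and 232 microglia had a sum of 1. Just inside the edge, Cxcl13 was at 383 CPM in C-ON, and just outside it at 327. The corresponding levels for FMC_new were 1693 inside and 1291 outside.

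To learn what else the activated cells expressed, their summed counts were compared with those of 459 non-activated microglia (70 in C-ON, 389 in FMC_new), which met the same identity limits and had an activation sum of 0. The chemokines Cxcl13, Cxcl9, Cxcl10 and Ccl5, Il1a and Il1b, 8 of 11 complement genes and 12 of 19 lysosomal genes were higher in the activated cells. The 12 oligodendrocyte genes were lower. By edgeR's quasi-likelihood test with the library as a block, 394 of 9809 genes were higher (4.02%) and 676 were lower (6.89%). Of these, 383 and 662 had the same direction in each library alone. Without the library block, 3 genes were higher and 10 were lower. Without TMM scaling, 156 were higher and 648 lower.

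The classes also differed in foreign RNA and in depth. Mixed barcodes, which held marker RNA of another cell type above chosen limits, were 7.23% and 21.8% of the activated cells and 24.3% and 26.0% of the non-activated cells. Without them, 61 of 8071 genes were higher (0.756%) and 11 were lower (0.136%), of which 60 and 11 were among the genes called in all cells. In cells of 5000 to 12000 UMIs, 141 genes were higher (1.91% of 7393) and 344 were lower (4.65%). A set of 46 genes was higher in all cells, without mixed barcodes, in cells of 5000 to 12000 UMIs and after thinning, and 4 genes were lower in all of these (Ptgds, Klra2, Mrc1 and Mobp). Calls without mixed barcodes and at 5000 to 12000 UMIs were alternatives chosen after seeing the data.

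**Figure D2:**
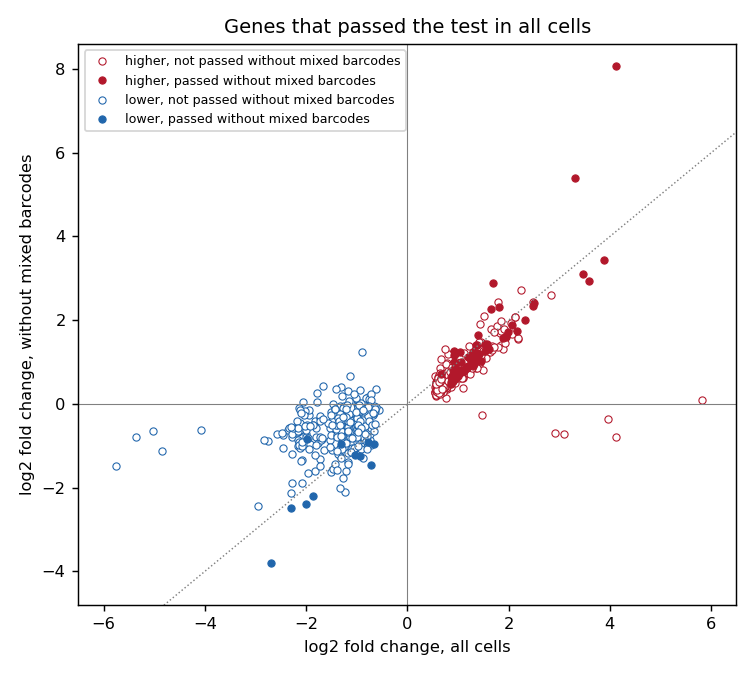
Log2 fold change (activated over non-activated microglia) in all cells and without mixed barcodes, for genes that passed the test in all cells and were tested in both. Of 386 higher genes 381 keep their sign, with medians of 0.87 and 0.64, and of 282 lower genes 258 do, with medians of -1.26 and -0.58.

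Chemokines that act on lymphocytes were among the largest increases. Cxcl13, the ligand of Cxcr5 on B cells and follicular helper T cells, was at 1181 and 3962 CPM in the activated cells of C-ON and FMC_new and at 45.4 and 699.9 in the non-activated cells. The activated cells were higher in each library, while the libraries themselves differed. The log2 fold change was 3.46 ± 0.32 (SE, edgeR adjusted p = 1.0e-07), and it was 4.92 in C-ON alone and 2.65 in FMC_new alone. Without the block the adjusted p was 0.27. At 2000 UMIs per cell, Cxcl13 was found in 30.1% and 65.1% of activated cells, 6.06% and 27.4% of non-activated cells and 0.0853% and 2.26% of oligodendrocytes.

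Cxcl9 and Cxcl10 are interferon-inducible ligands of Cxcr3 on T cells. Cxcl9 was at 1233 and 447 CPM in the activated cells and at 24.0 and 86.4 in the non-activated cells, a log2 fold change of 3.58 ± 0.39. Cxcl10 was at 203 and 341 against 50.7 and 73.7, a log2 fold change of 2.33 ± 0.20. In neither gene did the classes overlap. Without mixed barcodes the log2 fold changes were 2.93 and 2.01, and both genes passed.

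Ccl5, a chemokine that in Nf1 optic glioma is known as a microglial growth factor for the tumor, was at 1898 and 1290.2 CPM against 166 and 509. The log2 fold change was 2.50 ± 0.33 (edgeR adjusted p = 1.3e-05), with 3.76 in C-ON alone and 1.49 in FMC_new alone. It was 2.41 without mixed barcodes and 1.27 in cells of 5000 to 12000 UMIs, and it did not pass with DESeq2 (adjusted p = 0.14). Ccl5 RNA was also found in oligodendrocytes. At 2000 UMIs per cell it was seen in 41.0% and 42.7% of activated cells, in 7.58% and 24.6% of non-activated cells and in 3.94% and 18.9% of oligodendrocytes. Before thinning, these shares were 51.8% and 62.1%, 12.9% and 37.8% and 7.57% and 32.1%.

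The other chemokines followed by the study were less far apart. Ccl4, which attracts T cells and macrophages, was at 1827 and 2160.1 CPM against 636 and 1223 (1.36 ± 0.20 on the log2 scale) and passed without mixed barcodes. Ccl3, a ligand of Ccr1, was at 587 and 694 against 275 and 504 (0.94 ± 0.20) and did not pass without them (adjusted p = 0.19). Ccl2, which draws monocytes through Ccr2, was at 566 and 553 against 545 and 410.2 and did not pass (0.45 ± 0.18, adjusted p = 0.12).

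**Figure D3:**
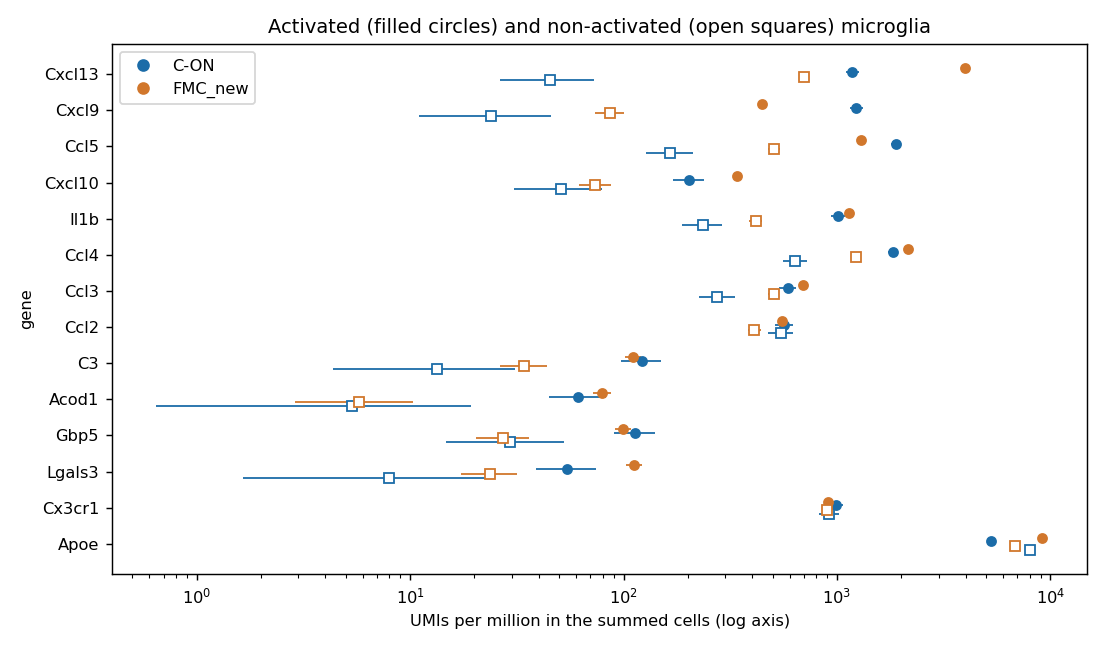
CPM (log axis) of 14 genes in the summed activated (filled circles) and non-activated (open squares) microglia of each library, with exact 95% Poisson intervals for counting error. Cxcl13, Cxcl9 and Ccl5 lie apart in both libraries, while Cx3cr1 lies between 901 and 987 in all 4 sums.

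The interleukin-1 genes were higher. Il1b was at 1012 and 1135 CPM against 235 and 417, and the classes did not overlap. Its log2 fold change was 1.94 ± 0.21 (edgeR adjusted p = 7.6e-07), and 1.60 without mixed barcodes. Il1a was at 1057 and 902 against 382 and 435 (1.45 ± 0.19). Il1rn, which encodes the antagonist of their receptor, was at 67.1 and 62.3 against 53.4 and 6.32. The libraries differed in the size of this gap, and its log2 fold change was 2.18 in all cells and 1.54 without mixed barcodes, where it did not pass (adjusted p = 0.24). Tnf, tumor necrosis factor, was at 323 and 395 against 160.2 and 152 (1.42 ± 0.18) and passed in both settings.

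Of 26 chemokine, cytokine and receptor genes tested, 14 were higher and 0 lower, with a median log2 fold change of 0.93 against 0.00 over all genes, of which 4.02% were higher. Without mixed barcodes 9 of 25 were higher, and 0.756% of all genes. Acod1, which makes itaconate in activated macrophages, had the largest increase of the genes named by the rule. It was at 61.5 and 79.4 CPM against 5.34 and 5.79, a log2 fold change of 3.89 ± 0.32 (edgeR adjusted p = 2.9e-08). It was found in 9.64% and 14.4% of members.

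Complement and antigen-presentation genes were higher as well. C3, the central complement component, was at 122 and 111 CPM against 13.4 and 34.2 (2.17 ± 0.26). Cfb, factor B of the alternative pathway, was at 199.8 and 90.2 against 40.1 and 31.1 (1.99 ± 0.23). Of 11 complement genes 8 were higher and 0 lower, against 4.02% and 6.89% of all genes. Without mixed barcodes 4 were higher, namely C3, C5ar1, Cfb and Serping1, against 0.756% of all genes. B2m, the light chain of MHC class I, was at 3685 and 4379.6 CPM against 1479.5 and 3035 (1.12 ± 0.20), and Cd74, the invariant chain of MHC class II, at 27492 and 25063 against 13967 and 17436 (0.95 ± 0.17). The class I list had 12 of 14 genes higher and the class II list 7 of 9. Without mixed barcodes 2 (B2m and H2-K1) and 1 (Cd74) passed, the medians were 0.51 and 0.40, and 10 and 7 were higher at an unadjusted p under 0.05 (560 of 8071 of all genes).

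Interferon-stimulated genes gave 8 higher of 19, against 4.02% of all genes, with a median log2 fold change of 0.65. Gbp2, a guanylate-binding protein, was at 273 and 152 CPM against 45.4 and 68.5 (1.79 ± 0.24). By edgeR 0 passed without mixed barcodes, where the median was 0.51 and 14 were higher at an unadjusted p under 0.05, as were 560 of all 8071 genes (DESeq2 called 2 in all cells). Gbp5, of the same family and in no list, was at 113 and 99.5 against 29.4 and 27.4 (2.06 ± 0.23) and passed there.

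The Trem2-linked genes, which rise in microglia around lipid debris, did not move as one. Of 22 genes 14 were higher and 1 lower (Ank), against 4.02% and 6.89% of all genes, with a median of 0.78. Without mixed barcodes 8 of 21 were higher (0.756% of all genes) and 0 lower. The log2 fold change of Ank was -1.34 in all cells and -0.04 without them. Lgals3, encoding galectin-3, was at 54.5 and 112 CPM against 8.01 and 23.7 (2.47 ± 0.26). In C-ON these levels rest on 39 UMIs, of which 1 cell held 14, against 3. Lgals3 in microglia with an activation sum of 1 was at 83.7 CPM in C-ON, above the members, and at 52.5 in FMC_new, below them. Cd36, a scavenger receptor of the lipid-handling list, was at 76.9 and 76.0 against 24.0 and 21.6 (1.96 ± 0.24). Both passed without mixed barcodes. The lipid-handling list as a whole had 2 of 14 genes higher (Abca1 and Cd36) and 0 lower, with a median of 0.13. Without mixed barcodes it had 1 of 12 higher. The tetraspanin Cd63 had a log2 fold change of 1.29 ± 0.19 and Cd9 of 0.90 ± 0.19. Trem2 itself was at 939 and 1005 against 622 and 831 (0.63 ± 0.19, adjusted p = 0.032) and did not pass without mixed barcodes (adjusted p = 0.48). Apoe, the lipid carrier, was lower than in non-activated cells in C-ON and higher in FMC_new, at 5287 and 9150.4 against 8017 and 6828, and did not pass (adjusted p = 0.82). Spp1, encoding osteopontin, passed (3.30 ± 0.29), but 1 cell held 423 of its 897 UMIs in the FMC_new members. Without mixed barcodes Spp1 passed at 5.40 on the log2 scale.

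Lysosomal genes were higher in 12 of 19 cases (4.02% of all genes) and lower in 0, with a median of 0.67. Without mixed barcodes 6 of them passed as higher (0.756% of all genes). Ctsb, cathepsin B, was at 2703 and 2832 CPM against 1279 and 1589 (1.16 ± 0.18) and Ctsz, cathepsin Z, at 1671 and 1692 against 619.6 and 987 (1.29 ± 0.20). Glycolysis and hypoxia genes were higher in 9 of 15 cases, Pkm, a pyruvate kinase, among them (1.26 ± 0.18), against 4.02% of all genes. Without mixed barcodes 3 passed (Pkm, Gapdh and Pgk1, against 0.756% of all genes), and DESeq2 called 2 in all cells. Immune checkpoint genes were higher in 5 of 13 cases, against 4.02% of all genes. Among the 5, Lag3 had 678 and 428 CPM against 174 and 256. By edgeR 0 passed without mixed barcodes, where 3 were higher and 1 lower at an unadjusted p under 0.05 (560 and 382 of all 8071 genes). DESeq2 called 0 in all cells.

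Among the homeostatic genes, 1 call was made. Both classes had to hold at least 3 UMIs of Tmem119, P2ry12 and Sall1, so microglia that had lost this RNA could enter neither. The count therefore cannot show whether such a loss occurs. Cells with a sum of exactly 2 that passed every other limit of the members numbered 5 in C-ON and 70 in FMC_new. Of 25 tested, 1 was higher (Itgam, 0.58 ± 0.17) and 0 were lower by edgeR, where 4.02% and 6.89% of all genes were, with a median of 0.15, which was -0.19 without mixed barcodes. At an unadjusted p under 0.05, 7 were higher and 1 lower in all cells (936 and 1117 of all 9809 genes), and 0 and 4 without mixed barcodes (560 and 382 of 8071). DESeq2 called 1 higher and 0 lower. Without TMM scaling the median of all genes moved to -0.19, by more than this median. Cx3cr1, the fractalkine receptor, was at 987 and 905 CPM against 919 and 901 (0.25 ± 0.18, adjusted p = 0.5). Members with mitotic genes were few. At 2000 UMIs per cell, at least 3 UMIs over 11 mitotic genes were found in 0 of 83 members of C-ON, with an exact 95% interval up to 4.35%, and in 8 of 562 of FMC_new.

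Of the called genes at 50 CPM or more in both libraries, Ccn3 and Mgp had the largest decreases. They met this limit through the non-activated cells only, and they were not tested without mixed barcodes. Ccn3, a matricellular protein, was at 1.40 and 1.82 CPM against 342 and 113, and Mgp, matrix Gla protein, at 2.80 and 6.67 against 66.8 and 171. All 12 oligodendrocyte genes were lower, against 6.89% of all genes, with a median of -2.09. Mobp, a myelin-associated protein, was at 169 and 178 against 518 and 476 (-1.31 ± 0.17). Barcodes with at least 10 oligodendrocyte UMIs were 3.61% and 3.33% of the activated cells and 17.1% and 9.25% of the non-activated cells, and their part in these decreases was not tested. Without mixed barcodes 2 of the 12 were lower (0.136% of all genes), Mobp (-0.97) and Ptgds (-3.81, against -2.69 in all cells). Mrc1, the mannose receptor of border macrophages, was at 4.19 and 17.4 against 109 and 52.1 (log2 fold change -2.0, SE 0.35), and Klra2, a lectin-like receptor, at 8.39 and 10.5 against 109 and 43.2 (-2.29 ± 0.32). Both passed in both settings. Of 6 border macrophage markers tested, 3 were lower (Mrc1, Ms4a7 and Clec12a) and 0 higher, with a median of -1.19. Without mixed barcodes 1 of 6 was lower (Mrc1), with a median of -1.57. Their list summed to 67.1 and 104 CPM in the activated cells and to 342 and 232 in the non-activated cells.

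Of the other lists, growth factors gave 1 higher (Pdgfb, 1.06 ± 0.25) and 4 lower (Mdk, Ptn, Nrg1 and Fgf1) of 8. Of 6 glioma markers 4 were lower, where 4.02% of all genes were higher and 6.89% lower. Neither list had a call without mixed barcodes, where no glioma marker was tested. At an unadjusted p under 0.05, 2 growth factors of 5 were higher there and 2 lower (560 and 382 of all 8071 genes). Immediate early genes, which can rise during dissociation, were higher in 3 of 24 cases (Egr3, Nr4a1 and Nfkbia), against 4.02% of all genes. Their median was 0.32, and 11 were higher at an unadjusted p under 0.05 (936 of all 9809 genes). Without mixed barcodes 0 passed by edgeR, with 6 higher at an unadjusted p under 0.05 and a median of 0.06, and DESeq2 called 2 in all cells. Genes of T and NK cells gave 0 calls of 7 by edgeR, with 1 higher at an unadjusted p under 0.05, and 0 calls of 11 by DESeq2. Their summed level in the non-activated cells was 24.0 and 191 CPM.

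Levels were also followed over the activation sum, as a description, since this sum chose the members. Cxcl13 in C-ON was at 45.4 CPM at a sum of 0, 383 at a sum of 2 and 2312 above 10. For FMC_new these levels were 699.9, 1693 and 6263. Cxcl13 was thus higher in each higher bin of both libraries. Without mixed barcodes this order did not hold between sums of 1 and 2, where C-ON had 416 and 383 CPM and FMC_new had 1561 and 1547. Ccl5 was higher above 10 than at 0, at 2534 against 166 in C-ON and 1744 against 509 in FMC_new, with bins between that did not follow the order. Cx3cr1 was at 919 and 989 in these 2 bins of C-ON and at 901 and 879 in those of FMC_new. The median depth moved with the sum, from 4768 and 4189 UMIs at 0 to 10602 and 11104 above 10, and its part was not tested.

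**Figure D4:**
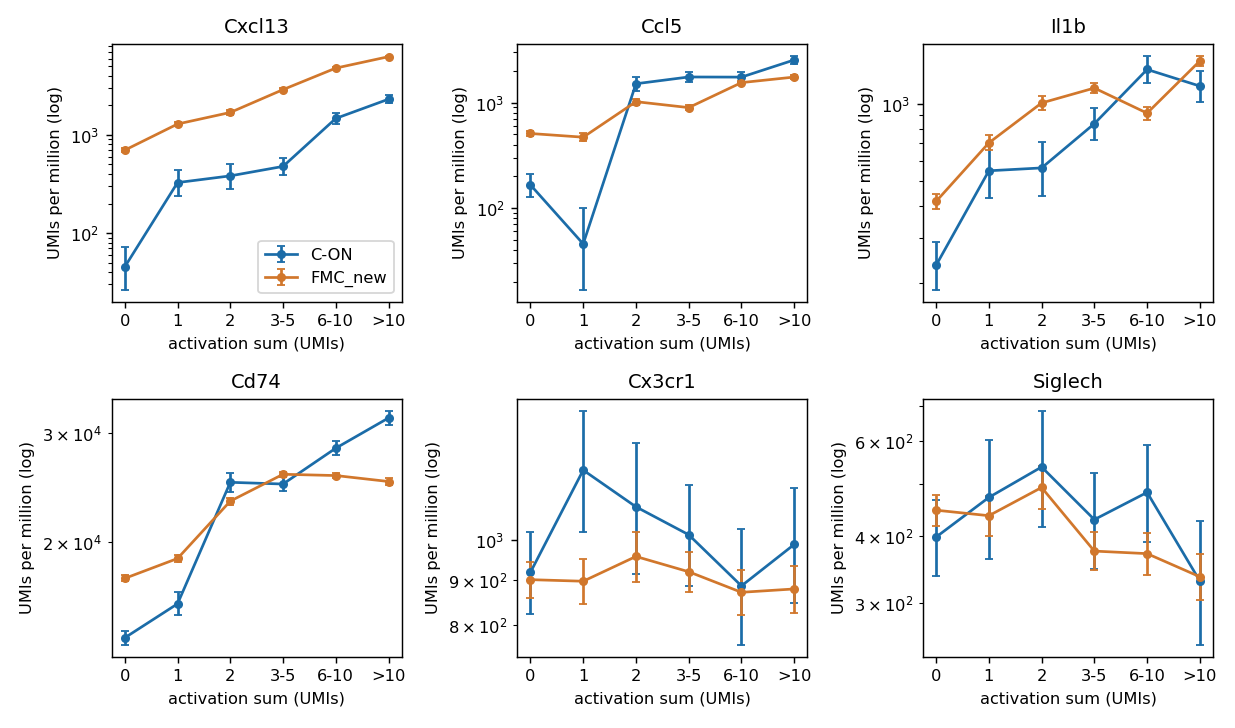
CPM (log axis, with its own range in each panel) of 6 genes in microglia grouped by activation sum, for each library, with exact 95% Poisson intervals for counting error. Cxcl13 climbs from 45.4 to 2312 in C-ON and from 699.9 to 6263 in FMC_new, and Cx3cr1 shows no such climb.

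Members were not alike. Those with Gpr84 and without Cst7 (34 in C-ON, 218 in FMC_new) had Ccl5 at 501 and 358 CPM, and those with Cst7 and without Gpr84 (16 and 104) had it at 2654 and 2643. Cxcl9 was at 107 and 167 in the former and 2199 and 679.8 in the latter, and Cd74 at 7989.6 and 19888 and 39505 and 28764. Cells with Cst7 were the higher ones for these genes in both libraries. Cx3cr1 and Siglech ran the other way. Cx3cr1 was at 1549 and 1079.6 with Gpr84 and 751 and 729.8 with Cst7, and the lectin Siglech at 774 and 541 and 158 and 309. Cst7 and Ccl5 are also T cell genes. Without mixed barcodes, which leaves out cells with 2 or more UMIs of T and NK cell markers, Ccl5 was at 557 and 349 and 2497 and 2872, so the order was the same. Median depths were 5384.5 and 6690 UMIs with Gpr84 and 11575.5 and 7871.5 with Cst7, and their part was not tested.

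**Figure D5:**
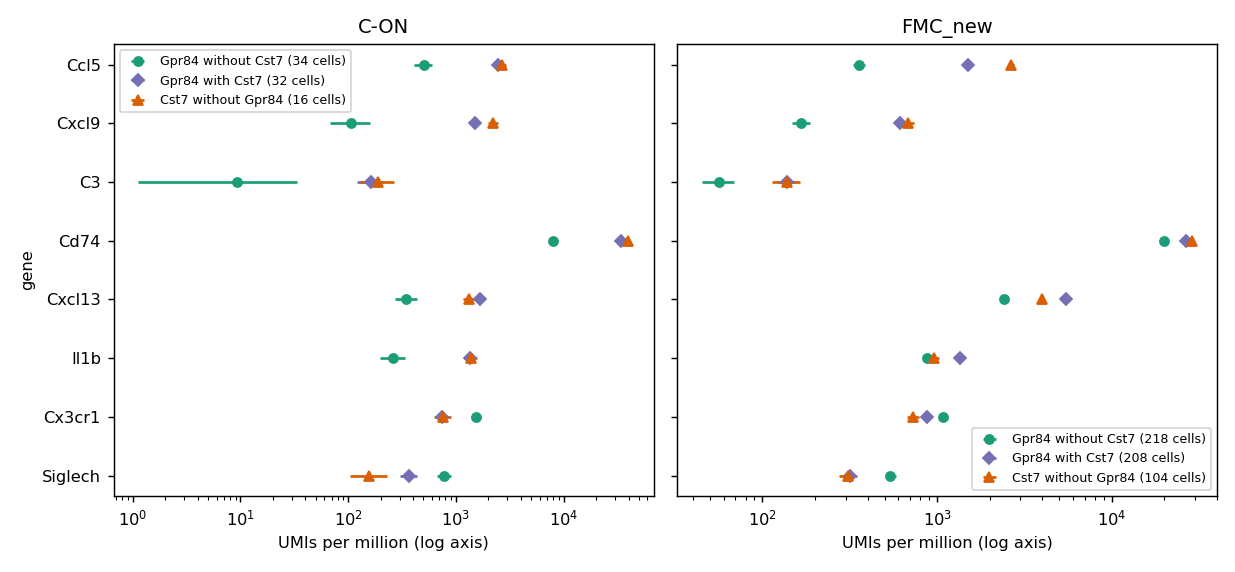
CPM (log axis) of selected genes in members with Gpr84, Cst7 or both, for each library, with exact 95% Poisson intervals for counting error. Of these 3 groups, Ccl5 and Cxcl9 lie lowest in members with Gpr84 and without Cst7, at 501 and 358 and 107 and 167, while Cx3cr1 lies highest there.

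Chemokine RNA was unevenly spread over the members. The 8 members of C-ON and 57 of FMC_new with the most UMIs of a gene held 68.3% and 67.3% of the Ccl5 UMIs and 89.7% and 91.0% of the Cxcl10 UMIs. The corresponding shares were 81.1% and 53.5% for Cxcl13 and 52.2% and 59.2% for Ccl4, against 23.9% and 23.6% for Cx3cr1. Members with Ccl5 held Cxcl9 more often than members without it. At 2000 UMIs per cell, Cxcl9 was seen in 61.8% and 38.3% of members with Ccl5 and in 12.2% and 7.76% of the other members. Cxcl10 and Cxcl9 showed no such pairing in C-ON, with Cxcl10 in 7.41% of members with Cxcl9 and 10.7% of the others (21.4% and 13.9% for FMC_new). Cells of a library are not replicates, and no test was made on these shares.

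Activated microglia were then compared with border-associated macrophages (148 and 296 cells), the resident macrophages of the meninges and vessels, chosen by F13a1, Lyve1 and Mrc1 and by the absence of the identity genes. By edgeR 908 of 9597 genes were higher (9.46%) and 1086 lower (11.3%). In cells of 5000 to 12000 UMIs, 536 (7.26%) and 608 (8.23%) were, and without mixed barcodes 909 (11.7%) and 884 (11.4%). Homeostatic genes were higher in 22 of 25 cases, with a median of 2.22 against -0.03 over all genes. Presence of the identity genes chose the members and their absence these macrophages, so this direction follows in part from the gates. Cx3cr1 was at 987 and 905 CPM against 228 and 254 (2.04 ± 0.21). Lag3, an inhibitory receptor related to CD4, was at 678 and 428 against 3.76 and 18.3 (5.42 ± 0.41). Il1a was at 1057 and 902 against 67.7 and 36.1 (4.39 ± 0.25), and Il1b at 1012 and 1135 against 682 and 1039. Il1b did not pass in all cells (0.42 ± 0.21, adjusted p = 0.19) and passed without mixed barcodes (0.80). Cxcl13 was higher by 4.33 ± 0.23 and Ctsd, cathepsin D, by 3.75 ± 0.22. Ccl2 and Lgals3 were lower. Ccl2 was at 566 and 553 against 2153 and 1494 (-1.60 ± 0.21) and Lgals3 at 54.5 and 112 against 203 and 352 (-1.68 ± 0.22).

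The last comparison was with MHC-II-high C1q macrophages (158 and 1122 cells), chosen by H2-Aa, H2-Ab1 and H2-Eb1 without identity or border genes. By edgeR 1461 of 11699 genes were higher (12.5%) and 1891 lower (16.2%), and without mixed barcodes 604 (6.81%) and 862 (9.72%). Of these macrophages 51.9% and 49.8% were mixed barcodes. In cells of 5000 to 12000 UMIs 14.5% of genes were higher and 15% lower. Homeostatic genes were higher in 25 of 25 cases (22 without mixed barcodes) and lysosomal genes in 19 of 19 (10). For the homeostatic genes this direction again follows in part from the gates, which required the identity genes in the members only. Trem2 was at 939 and 1005 CPM against 195 and 169 (2.41 ± 0.17), and Cxcl13 at 1181 and 3962 against 14.6 and 496 (4.19 ± 0.51). Il1a was higher by 3.69 ± 0.20. Il1b was lower, at 1012 and 1135 against 1885 and 1646 (-0.73 ± 0.15), as was Lgals3 (-2.01 ± 0.23). Acod1, Cxcl9, Cxcl10 and C3 were higher in all cells and did not pass without mixed barcodes, where C3 was at -0.45 on the log2 scale. With every cell with 2 or more UMIs of another cell type left out, Cxcl9 (-0.83, edgeR adjusted p = 0.044) and C3 (-1.71, adjusted p = 0.012) passed as lower.

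Promoter sequences were read for the 46 genes that were higher in all cells, without mixed barcodes, at 5000 to 12000 UMIs and after thinning, to show which carry the letters of 5 motifs. RefSeq (GRCm38.p6) gave a promoter for 34 of them, and the 250 bases before the start were searched on both strands. The ISRE-type motif, GAAA, any 2 bases and GAAA, was present in Cxcl10, Gbp5, Pld3 and B2m, which is 11.8% of the 34 and compares with 3.46% of 27025 genes. The NF-κB-type motif, GGGA, any base and TTTCC, was present in Gbp5 and B2m (5.88%, against 0.414% of all). The GAS motif, TTC, any 3 bases and GAA, was present in Gbp5 (2.94%, against 8.13%). The PU.1-type motif, AGAGG followed by AAGT, was present in Bcl2a1a and Bcl2a1b, close copies of each other (5.88%, against 0.94% of all). The CLEAR-type motif, TCAC followed by GTGA, was present in Tnfaip3 (2.94%, against 0.907%). A match is no proof of binding, and no test was made. The windows of Cxcl10, at chr5:92349073-92349122 on the minus strand, and of B2m, at chr2:122147528-122147590 on the plus strand, are shown because both genes rose in the activated cells. They run 5′ to 3′ on the strand of the gene, with the matched letters in capitals (in B2m the ISRE-type match comes before the NF-κB-type match).
Cxcl10: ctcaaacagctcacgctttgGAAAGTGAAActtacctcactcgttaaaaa
B2m: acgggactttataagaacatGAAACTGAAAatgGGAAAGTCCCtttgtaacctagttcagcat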

How the data were processed

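Per the labels, the authors captured optic nerve cells with 10X Genomics droplets and deposited raw UMI counts per gene and barcode, made with Cell Ranger 7.2.0 on mm10 (GRCm38). Barcodes with 500 to 5000 genes, 500 to 20000 UMIs and at most 5% mitochondrial UMIs were kept (8834 of 10845 in C-ON, 16818 of 21341 in FMC_new), at medians of 6810.5 and 4676 UMIs. No doublet caller was run. Members, classes and gene lists were chosen with earlier results of these data known. Counts were summed per library and class and tested with edgeR 4.0.16 under R 4.3.3 (TMM, filterByExpr, two-sided, Benjamini-Hochberg over all genes tested, threshold 0.05). Gate genes were not tested. The library was a block, since the classes of a library share a suspension (correlation of library differences 0.412 across 9818 genes). With 2 libraries, 1 residual degree of freedom was left. The p-values cover how far the class difference varied between these pools, since the block takes out differences between the libraries themselves. They rest largely on spread that edgeR shares across genes (median of 20.1 prior degrees of freedom in the first comparison). On simulated counts of the first comparison (9318 genes), 53.0% of 2-fold and 98.0% of 4-fold changes were called. Of the calls, 5.06% were false. The simulation gave every gene the same dispersion and both libraries the same class effect, without mixed barcodes, so the data are less regular than it. Levels are CPM, computed from the summed UMIs of each class and library. Named genes were the listed genes, the 12 largest changes in each direction among called genes at 50 CPM or more in both libraries, and Ccl2, Ccl3, Ccl4, Ccl5 and Il1b. The limit of 50 CPM did not have to hold in both classes. Mixed barcodes had at least 10 oligodendrocyte UMIs, 2 marker UMIs of any of 9 other cell types, or high pituitary hormone counts. Jchain and Slc1a3, widespread in these cells, were not used for this limit, so their RNA is left in the sums. With them counted, 58 of 83 and 552 of 570 members had 2 or more marker UMIs of some other cell type, oligodendrocytes included. DESeq2 1.42.0, other gates, depths and filters were alternatives. A few of the listed genes are not reported here.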

Additional observations from a re-analysis of the deposited data

How the results depend on the processing

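Without the replicate block, 3 genes were higher and 10 lower against non-activated microglia, 316 and 273 against border-associated macrophages, and 651 and 572 against MHC-II-high C1q macrophages. In the same order of comparisons, DESeq2 gave 105 and 146, 314 and 336, and 516 and 587. Cells thinned to 2000 UMIs gave 181 and 209, 532 and 580, and 960 and 1080. Leaving out every cell with 2 or more UMIs of another cell type kept 25 and 18 activated cells and gave 13 and 4, 106 and 100, and 219 and 234. Cells of 5000 to 12000 UMIs gave 141 and 344, and 536 and 608, in the first and second comparison. Without mixed barcodes the counts were 61 and 11 in the first and 604 and 862 in the last. Against non-activated microglia, an identity sum of at least 5 gave 83 and 106, and no TMM scaling gave 156 higher and 648 lower. The share of activated cells (48.6%) was 36.6% with an activation sum of at least 3, 42.9% without Itgax, 54.9% with an identity sum of at least 5, 61.2% at 5000 to 12000 UMIs, 20.3% after thinning, 45.3% without cells of other types and 50.4% without mixed barcodes, and ran from 46.6% to 48.9% when 1 library was left out. Log2 fold changes against MHC-II-high C1q macrophages turned negative without cells of other types for Cxcl9 (-0.83), C3 (-1.71), Cfb (-0.40), Ccl2 (-0.73), Ccl4 (-0.063), Apoe (-0.47), Cd63 (-0.12) and Gbp2 (-0.63), and without mixed barcodes for C3 (-0.45), Ccl4 (-0.059), Tnf (-0.051) and Apoe (-0.47). Of these, Cxcl9 and C3 passed as lower without cells of other types. Against non-activated microglia, Itgam was at -0.026 without cells of other types. The cause was not tested. With 1 library left out no test is possible, and of 126 named log2 fold changes all kept their direction in each library alone except, against non-activated microglia, those of Apoe (-0.35 in C-ON alone) and Siglech (-0.057 in FMC_new alone), which were not called.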
